A study of Mus musculus with 14 samples.

Results

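The 10 genes described here belong to the machinery of granulocyte and monocyte production: the transcription factors Spi1 and Gfi1, the cytokine receptors Csf1r, Csf3r, Csf2ra and Csf2rb, and the granule genes Mpo, Elane, Prtn3 and Ctsg. They were taken as a list of names, out of 45218 genes with a placed start, of which 21441 are protein-coding. Their H3K4me3 was read from 7 peak lists of LSK cells (Lin-Sca1+cKit+ stem and progenitor cells sorted from mouse BM), 3 from HFD mice (HFD-LSK) and 4 from LFD mice (LFD-LSK). Per the study's methods, male C57BL/6J mice aged 3 to 4 wk at purchase received a diet with 60% (HFD) or 10% (LFD) of kcal from fat for 16 to 20 wk. The methods tie no other treatment to the CUT&Tag libraries, and the labels name no mutant allele. In CUT&Tag, an antibody (here ab8580, against H3K4me3) brings a transposase to the chromatin it binds, and a peak is a stretch where the resulting fragments exceed the library's own background. Neither the labels nor the methods state whether a library is 1 mouse or a pool, or which cohort each library came from, so p-values measure the spread between libraries.

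H3K4me3 is laid down at active and poised gene starts, and at CpG-rich promoters it is found in most cell types. PU.1, encoded by Spi1, works together with C/EBP factors to switch on the receptors for M-CSF (Csf1r), G-CSF (Csf3r) and GM-CSF (Csf2ra and Csf2rb), and Gfi1 is a repressor that favors the granulocyte fate and restrains stem cell cycling. MPO, neutrophil elastase, proteinase 3 and cathepsin G are the enzymes of primary granules, made at the promyelocyte stage, which lies downstream of the LSK gate.

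The lists held 9186, 13094 and 11977 peaks in HFD-LSK replicates 1 to 3 and 7447, 10572, 10352 and 6921 peaks in LFD-LSK replicates 1 to 4. Fold, p and width depend on the depth and background of each library, so fold and p were not compared as levels between libraries. Widths are compared between the diets with this limit, since the median start called in all 7 lists was wider in HFD-LSK by 289 bp. The fewest fragments at a called summit, recovered from the deposited values, ranged from 4 to 21 per library, and a start below its list's limit cannot be seen. A missing call is therefore not a measured absence. As a check of the label, starts of stem and progenitor genes were called in 26 of 30 gene-by-list positions in HFD-LSK and 28 of 40 in LFD-LSK. The mean share per list over all protein-coding starts was 46.2% in HFD-LSK and 38.5% in LFD-LSK. Kit, the defining receptor of the gate, was called in 7 of 7 lists, whereas Ly6a, which encodes Sca-1, had no start call in any list. Among 8 markers of mature neutrophils and monocytes only Cd14 was called, in 6 lists. The 4 B cell markers had no call, Lck was the T cell marker called (1 of 7 lists), and the erythroid factor gene Klf1 was called in 5 lists.

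Promoter sequences of 300 bases, from 250 before to 50 after the start, were available for 7 of the 10 genes (RefSeq, GRCm38.p6). They are shown because the 10 genes differ in whether their starts carried a peak, and because their sequences differ in CpG content and in short motifs. Capitals mark matches on either strand to the TATA box TATAAA, to the PU.1-type motif GAGGAA, to the C/EBP-type motif TTGCNNAA, to the RUNX-type motif TGTGGT or to the MYB-type motif AACNGC, where a match on the other strand appears as its reverse complement. The first pair had a start peak in 7 and 6 lists: Gfi1 at its upstream start (chr5:107725756-107726055, minus strand) and Csf3r (chr4:126024409-126024708, plus strand).
Gfi1: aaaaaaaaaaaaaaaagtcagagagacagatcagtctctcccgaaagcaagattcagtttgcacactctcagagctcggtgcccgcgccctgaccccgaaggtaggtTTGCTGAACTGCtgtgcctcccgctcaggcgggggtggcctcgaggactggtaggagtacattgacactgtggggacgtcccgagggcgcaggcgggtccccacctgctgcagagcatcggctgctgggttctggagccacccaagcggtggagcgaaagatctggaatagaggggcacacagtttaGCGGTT
Csf3r: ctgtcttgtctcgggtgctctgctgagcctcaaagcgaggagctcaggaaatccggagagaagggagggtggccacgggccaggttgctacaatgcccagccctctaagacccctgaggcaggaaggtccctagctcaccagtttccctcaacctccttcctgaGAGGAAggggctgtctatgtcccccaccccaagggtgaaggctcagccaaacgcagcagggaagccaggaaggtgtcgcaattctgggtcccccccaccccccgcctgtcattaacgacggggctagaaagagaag

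The promoters of the 4 granule genes lie at chr11:87793534-87793833 (Mpo, plus strand), chr10:79886062-79886361 (Elane, plus strand), chr10:79879417-79879716 (Prtn3, plus strand) and chr14:56102525-56102824 (Ctsg, minus strand). None of them carried a peak over the start itself in any list. Csf2ra (chr19:61228369-61228668, minus strand) is shown with them, since it had no call in any list although its promoter holds the most CpGs of the 7 genes.
Mpo: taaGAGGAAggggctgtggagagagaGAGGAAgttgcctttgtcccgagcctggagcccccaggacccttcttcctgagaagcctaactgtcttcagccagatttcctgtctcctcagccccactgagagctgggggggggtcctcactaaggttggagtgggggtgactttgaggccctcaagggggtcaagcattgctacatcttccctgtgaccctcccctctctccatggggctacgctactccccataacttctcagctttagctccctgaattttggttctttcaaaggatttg
Elane: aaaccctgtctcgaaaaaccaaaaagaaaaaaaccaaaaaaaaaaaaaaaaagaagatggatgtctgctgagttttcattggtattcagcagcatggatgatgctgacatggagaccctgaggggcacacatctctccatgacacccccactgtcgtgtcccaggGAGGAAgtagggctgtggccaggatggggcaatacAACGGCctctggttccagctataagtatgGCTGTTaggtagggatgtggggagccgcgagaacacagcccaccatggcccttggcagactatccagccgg
Prtn3: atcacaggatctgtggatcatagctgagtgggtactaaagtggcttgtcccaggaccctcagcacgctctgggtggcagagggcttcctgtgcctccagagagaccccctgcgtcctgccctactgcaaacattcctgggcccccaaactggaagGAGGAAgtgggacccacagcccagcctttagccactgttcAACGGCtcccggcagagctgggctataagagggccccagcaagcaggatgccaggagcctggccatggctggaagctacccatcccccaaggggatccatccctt
Ctsg: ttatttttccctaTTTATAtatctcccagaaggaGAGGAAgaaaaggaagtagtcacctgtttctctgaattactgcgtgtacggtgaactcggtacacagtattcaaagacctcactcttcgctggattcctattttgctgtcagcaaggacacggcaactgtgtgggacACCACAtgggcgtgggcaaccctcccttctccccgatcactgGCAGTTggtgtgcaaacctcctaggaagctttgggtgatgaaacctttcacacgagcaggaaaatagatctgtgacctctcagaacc
Csf2ra: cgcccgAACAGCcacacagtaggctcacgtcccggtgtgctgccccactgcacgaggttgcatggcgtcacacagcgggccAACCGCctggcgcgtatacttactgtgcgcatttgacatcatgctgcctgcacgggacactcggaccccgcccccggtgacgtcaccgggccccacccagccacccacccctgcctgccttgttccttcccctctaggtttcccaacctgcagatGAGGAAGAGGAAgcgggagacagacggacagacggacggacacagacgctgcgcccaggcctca

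GAGGAA was present in 6 of the 7 genes, always on the strand of the gene, and in 28.3% of the 32851 promoters in the table on either strand (15.6% on the strand of the gene). Its first base lay at position -86 in Csf3r, -85 in Elane, -95 in Prtn3, -216 in Ctsg, -247 and -224 in Mpo, and -14 and -8 in Csf2ra, where the start base is 0 and the pair in Csf2ra adjoins. The Elane and Prtn3 promoters, whose genes are neighbors, both carried AACGGC downstream of GAGGAA, at position -50 and at position -55. AACNGC was found in 5 of the 7 genes, against 35.9% of all promoters. The only C/EBP-type match was in Gfi1 at position -143, overlapping a MYB-type match at -137, and 10.8% of all promoters hold one. TATAAA and TGTGGT were found in Ctsg alone, at -237 and -79 on the other strand, against 13.6% and 16.8% of all promoters. These matches are letters in the window and were not tied to factor binding.

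Within 1 kb of the gene start, 5 of the 10 genes had a peak in at least 1 list, and 1 gene, Gfi1, in all 7. Over all protein-coding genes the same shares were 53.9% and 21.8%. Csf3r was called in 6 lists, Spi1, Csf2rb and Prtn3 in 1 list each. Taking the gene body as well, Spi1 and Prtn3 carried a peak in all 7 lists, and Mpo in 1. Csf1r, Csf2ra, Elane and Ctsg had no peak at the start or in the gene in any list. The start of Spi1 is here the 5′ end of the RefSeq gene, and its peaks inside the gene are placed against another transcript start further on. The grid of calls by list shows these 3 kinds of gene.

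**Figure D1:**
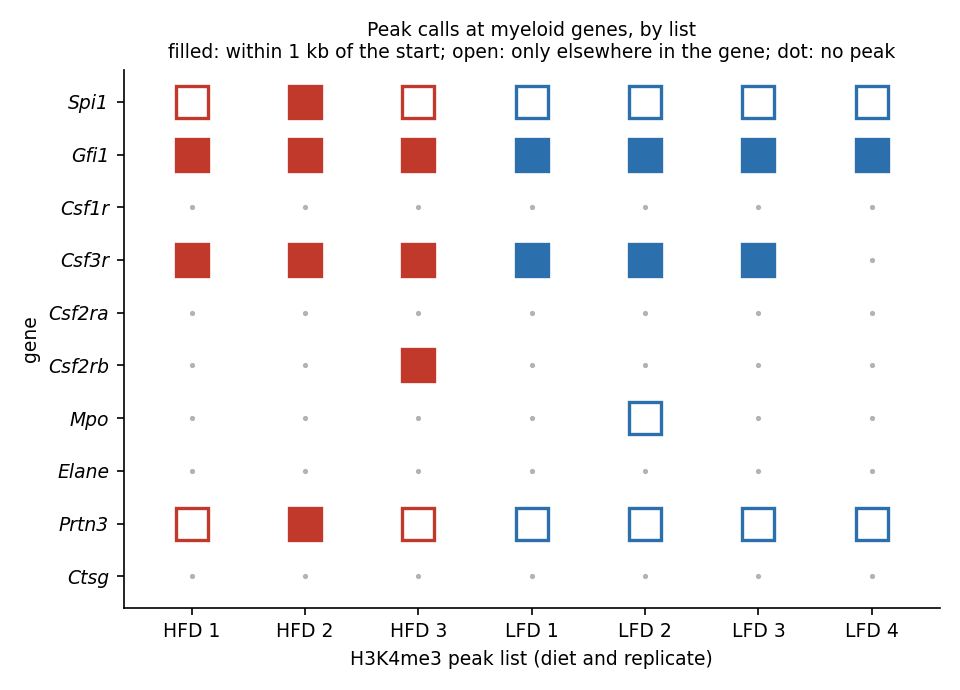
Peak calls at the 10 genes (rows) in the 3 HFD-LSK and 4 LFD-LSK lists (columns). Filled squares mark a peak within 1 kb of the gene start, open squares a peak only elsewhere in the gene, and dots no peak; Gfi1 is filled in 7 of 7 lists, Csf3r in 6, and Csf1r, Csf2ra, Elane and Ctsg hold dots alone.

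To compare the diets, start calls were counted per list. HFD-LSK replicates 1, 2 and 3 called 2, 4 and 3 of the 10 genes, and LFD-LSK replicates 1 to 4 called 2, 2, 2 and 1. The mean was 30% ± 10 (SD, n = 3) in HFD-LSK and 17.5% ± 5 (SD, n = 4) in LFD-LSK, a difference of 12.5 percentage points with overlapping lists. Over all protein-coding starts the means were 46.2% and 38.5%, a difference of 7.79 points in the same direction. The members' difference came from Spi1, Csf2rb and Prtn3, called in 1 HFD-LSK list each, together with the missing Csf3r call in LFD-LSK replicate 4. For Spi1 this holds only at the start used here, since its peaks inside the gene were called in all 7 lists. Of the 1065 starts called in exactly 1 list, 89.0% had that call in an HFD-LSK list. Without HFD-LSK replicate 2, the longest list, the difference was 7.5 points, within 3 kb of the start it was 6.67 points, and with calls anywhere in the gene, an alternative chosen after seeing the data, it was 3.33 points. No test was applied to these shares.

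None of the 10 genes was called in all lists of 1 diet and none of the other, a pattern that 0.277% of the 13726 gene starts with a call showed in the direction of HFD-LSK and 0 showed in that of LFD-LSK. None of the 5 genes with a start call differed in fold rank at an unadjusted p of 0.05 in the exact permutation test over the 35 assignments of the lists. Only Gfi1 and Csf3r could have passed. At a start called in 1 list, such as those of Spi1, Csf2rb and Prtn3, the assigned ranks keep the p above 0.05 wherever the called peak ranks. Such starts made up 7.76% of all starts with a call. Of all 13726 starts, 0.685% passed with ranks nearer the top in HFD-LSK and 1.74% with ranks farther from it. The smallest p that this test can give is 0.0286, and the smallest value over all starts after Benjamini-Hochberg adjustment was 0.977, so no start in the genome passed an adjusted threshold. Among the 5 members with a start call, the median difference in mean rank was 13 ranks (HFD-LSK minus LFD-LSK), beside -39.0 over all starts with a call. Most ranks at Spi1, Csf2rb and Prtn3 are assigned ones, which depend on list length. As percent of the own list, the medians were -31.2 points over these 5 genes and -19.8 points over all starts.

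Gfi1 (chr5:107716655-107725805, minus strand) encodes a zinc finger repressor and has 2 RefSeq starts, at 107725805 and 107724343. Its start was called in every list. The best fold rank was 6000.5, 3921 and 1341.5 in HFD-LSK replicates 1 to 3 and 5446, 2654.5, 646 and 3375.5 in LFD-LSK replicates 1 to 4, where 1 is the strongest peak of the list. The 2 groups overlapped, with the best rank in LFD-LSK replicate 3 and the worst in HFD-LSK replicate 1. The mean rank was 3754 ± 2334 (SD, n = 3) in HFD-LSK and 3030.5 ± 1982 (SD, n = 4) in LFD-LSK, a difference of 724 ranks (exact permutation p = 0.686, two-sided). Leaving out HFD-LSK replicate 1 turned the sign of this difference (-399), as did leaving out LFD-LSK replicate 3 (-71). The summit of the strongest peak was supported by 37, 48 and 20 fragments in HFD-LSK and by 38, 38, 32 and 20 in LFD-LSK.

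The summed width of the peaks at Gfi1 was 1477, 4143 and 2907 bp in HFD-LSK and 3137, 3277, 4033 and 1750 bp in LFD-LSK. In 6 of 7 lists this was above the 97th percentile of the 5384 gene starts called in all lists, from 97.4 in HFD-LSK replicate 2 to 99.7 in LFD-LSK replicate 1, and in HFD-LSK replicate 1 it was at 74.9. In 5 lists a single peak covered both RefSeq starts, in HFD-LSK replicate 1 it ended just short of the downstream one, and in LFD-LSK replicate 4 a peak of 744 bp at the upstream start and another of 1006 bp at the downstream start were called apart. The diets did not separate, with means of 2842 ± 1334 bp in HFD-LSK and 3049 ± 951 bp in LFD-LSK (exact permutation p = 0.714), and the difference of -207 bp turned to 476 bp when HFD-LSK replicate 1 was left out and to 121 bp when LFD-LSK replicate 3 was. Over the 5384 starts, 3.71% differed in width at an unadjusted p of 0.05. A further peak of 366 bp, 4114 to 4479 bp into the gene, was called in LFD-LSK replicate 3 alone.

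**Figure D2:**
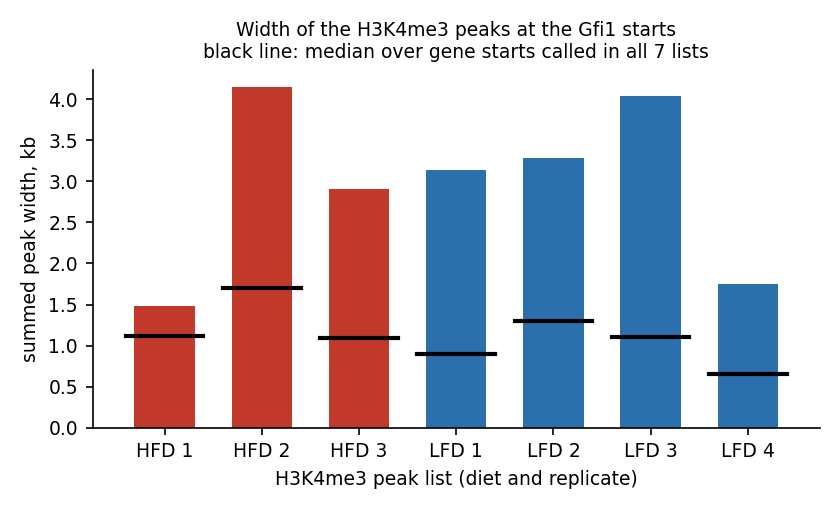
Summed width in kb of the peaks at the Gfi1 starts in each list (bars; red HFD-LSK, blue LFD-LSK), with the median over the 5384 gene starts called in all 7 lists as a black line. Every bar is above its line, by the least in HFD-LSK replicate 1 (1477 against 1115 bp).

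Csf3r (chr4:126023441-126044975, plus strand), the G-CSF receptor gene, was the only receptor with repeated calls. Its start peak ranked 3262, 4199.5 and 1489 in HFD-LSK replicates 1 to 3 and 7156.5, 4057.5 and 8672.5 in LFD-LSK replicates 1 to 3, and LFD-LSK replicate 4 had no call. All 3 HFD-LSK ranks lay in the upper 35.5% of their list, whereas LFD-LSK replicates 1 and 3 lay at 96.1% and 83.8% and replicate 2 at 38.4%. By rank, LFD-LSK replicate 2 fell among the HFD-LSK lists, whereas as percent of the list it did not. With the list lacking a call set midway between its length and the 14659 consensus peaks, the mean rank was 2983.5 ± 1377 (SD, n = 3) in HFD-LSK and 7669 ± 2832 (SD, n = 4) in LFD-LSK. The difference of -4686 ranks had an exact permutation p of 0.0857 (two-sided) and an adjusted p of 0.977 over all starts. Of all starts with a call, 2.64% had ranks nearer the top in HFD-LSK with a p no larger than 0.0857. The difference was -3645 without LFD-LSK replicate 4 (exact permutation p = 0.2) and kept its sign under every alternative tried. With ranks as percent of the own list, a scale added once the data had been seen, the means were 26.7% ± 12.5 (SD, n = 3) and 93.5% ± 48.4 (SD, n = 4), where a list without a call can exceed 100%. That difference of -66.9 points had an exact permutation p of 0.0571 and an adjusted p of 0.694. On this scale 1.03% of all starts passed an unadjusted p of 0.05 with ranks nearer the top in HFD-LSK, which Csf3r did not. The share with a p no larger than 0.0571 was not computed. The difference on this scale was -46.1 points without LFD-LSK replicate 4 (exact permutation p = 0.1).

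The width of the Csf3r peak was 980, 2127 and 1148 bp in HFD-LSK and 512, 1219 and 452 bp in LFD-LSK replicates 1 to 3, and these widths were not tested, since 1 list had no peak. The summits held 46, 49 and 16 fragments in HFD-LSK and 27, 32 and 12 in LFD-LSK, and lay between -103 and 352 bp from the start. The smallest counts called at any summit were 21 in LFD-LSK replicate 1 and 8 in LFD-LSK replicate 3, and LFD-LSK replicate 4 is the shortest list. Among the 3185 starts called in 6 lists, LFD-LSK replicate 4 was the missing list at 57.3%. The peak also covers the start of Gm32908, a predicted gene, and the 2 starts cannot be told apart. Mrps15, a mitochondrial ribosomal gene whose start is 22269 bp from that of Csf3r, was called in 6 lists too, the missing one being from HFD-LSK.

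**Figure D3:**
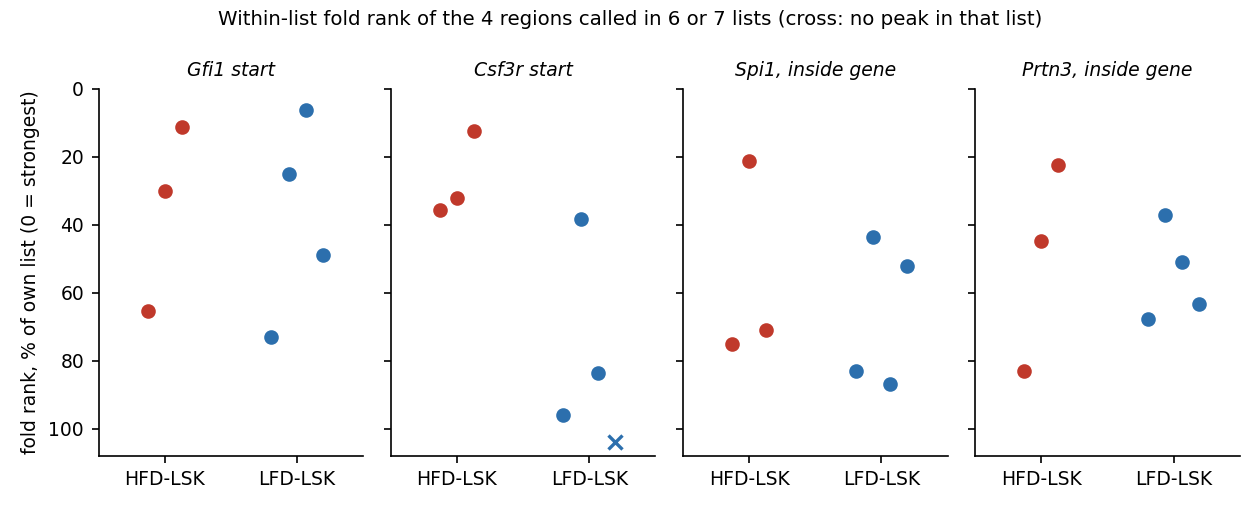
Fold rank as percent of the list (vertical axis, 0 for the strongest peak) in HFD-LSK (red) and LFD-LSK (blue) for the start regions of Gfi1 and Csf3r and the regions inside Spi1 and Prtn3, with 1 point per list and a cross for a list with no peak. At Csf3r the HFD-LSK points lie between 12.4% and 35.5%, and the other 3 regions show interleaved diets.

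The remaining receptors had 1 call or none. Csf2rb (chr15:78325800-78351001, plus strand), the shared beta subunit of the GM-CSF, IL-3 and IL-5 receptors, had 1 start peak of 296 bp in HFD-LSK replicate 3, at rank 9463 and with 8 fragments at the summit. That library called summits from 4 fragments, the lowest count of the 7, and its median summit, at 15 fragments, was the lowest too. Csf2rb2, the adjacent copy of this subunit with its start 20079 bp away, had no call. Csf1r (chr18:61105572-61131139, plus strand) had no peak, and the nearest peak in any list was 59091 bp from its start, beside Pdgfrb. Csf2ra (chr19:61217191-61228461, minus strand), the alpha subunit of the GM-CSF receptor, had none either, with the nearest peak 75944 bp away. Csf2rb and Csf2rb2 are close paralogs, and the sharing of reads between them was not tested.

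Spi1 (chr2:91082374-91115759, plus strand) showed how a call depends on which start is taken. At the 5′ end of the RefSeq gene, a peak of 907 bp was called in HFD-LSK replicate 2 alone, at rank 11338.5 of 13094 and with 17 fragments. Inside the gene, a region at chr2:91096289-91099280, which begins 13915 bp downstream of that start, was called in all 7 lists. Its 5′ edge is 19470 bp from the 3′ end of the gene in GRCm38, and in the GENCODE annotation of GRCm39 the canonical Spi1 transcript starts 19660 bp from its own 3′ end, with longer transcripts starting up to 13879 bp further upstream. By this distance, the region lies at or just after the start of the canonical transcript. No coordinate was converted between builds.

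The best rank in the internal Spi1 region was 6905.5, 2766.5 and 8518.5 in HFD-LSK and 6192, 4597, 9006.5 and 3603.5 in LFD-LSK. HFD-LSK replicate 2 was the best and LFD-LSK replicate 3 the worst, and the diets interleaved. The means were 6063.5 ± 2967 (SD, n = 3) and 5850 ± 2359 (SD, n = 4), a difference of 214 ranks (exact permutation p = 0.914) that turned negative when any one of HFD-LSK replicates 1 and 3 or LFD-LSK replicates 2 and 4 was left out (-207, -1014, -204 and -535). Of the 14659 consensus regions, 2.05% differed in rank at an unadjusted p of 0.05. The region was made of 1 peak in 4 lists and of 2 peaks in HFD-LSK replicate 3 and LFD-LSK replicates 2 and 3, with a summed width of 1589 ± 960 bp in HFD-LSK and 1213 ± 622 bp in LFD-LSK (exact permutation p = 0.514), a difference of 376 bp that became -77.5 bp without HFD-LSK replicate 2.

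Among the granule genes, Prtn3 had a peak downstream of its start in every list, Mpo in 1 list, and Elane and Ctsg in none. Prtn3 (chr10:79879667-79883174, plus strand) carried a peak in the region chr10:79880433-79882585 in all 7 lists. The summits lay 1698 to 2487 bp downstream of the start, in the middle and 3′ part of a gene of 3508 bp, and only the peak of HFD-LSK replicate 2, the widest at 1955 bp, reached into the 1 kb window, by 235 bases. Ranks were 7632, 5845.5 and 2692 in HFD-LSK and 5038.5, 3910, 5290 and 4384.5 in LFD-LSK, so that the HFD-LSK lists held both the best and the worst. The mean was 5390 ± 2501 (SD, n = 3) in HFD-LSK and 4656 ± 627 (SD, n = 4) in LFD-LSK (difference 734 ranks, exact permutation p = 0.629), and the sign turned without HFD-LSK replicate 1 (-387). The peak was 683, 1955 and 1654 bp wide in HFD-LSK and 1135, 1502, 743 and 211 bp wide in LFD-LSK (exact permutation p = 0.286). Of 10650 protein-coding genes with at most 1 start call, 1.63% carried a peak within the gene in all 7 lists, and Spi1 and Prtn3 are among these 174 genes by the starts used here. In the GENCODE annotation of GRCm39, retained-intron transcripts of Prtn3 start 1366, 1390 and 2169 bp downstream of its canonical start, and coding transcripts start at that canonical start or upstream of it.

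**Figure D4:**
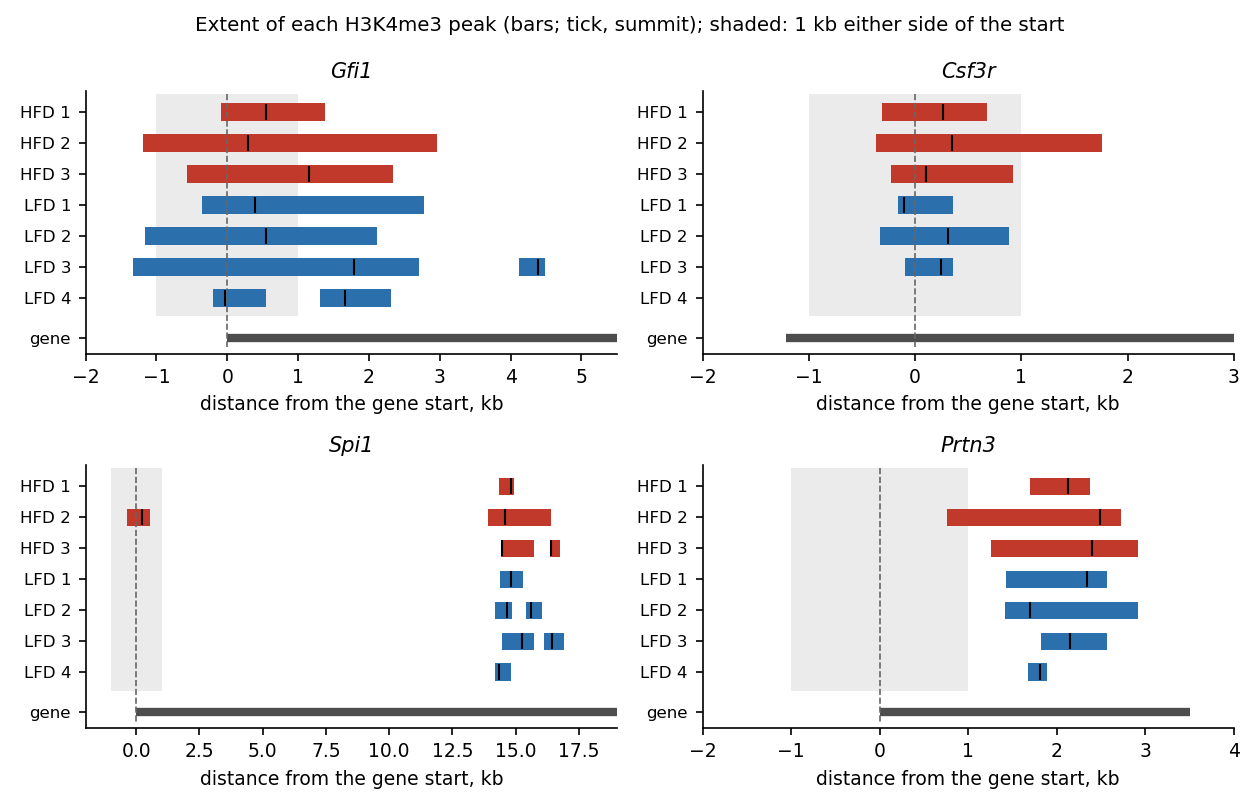
Extent of every peak (bars, with the summit as a tick) at Gfi1, Csf3r, Spi1 and Prtn3, by list (rows; red HFD-LSK, blue LFD-LSK), against distance from the gene start in kb; for Gfi1 this is the upstream start. The peaks at Gfi1 and Csf3r cover or adjoin the start, whereas those of Prtn3 lie beyond the shaded 1 kb window except in HFD-LSK replicate 2, and those of Spi1 cluster between 13915 and 16906 bp from it.

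Prtn3 and Elane lie in tandem with their starts 6645 bp apart, followed by Cfd, which encodes complement factor D. The internal peak of Prtn3 was also the nearest peak to Elane (chr10:79886312-79888216, plus strand), 3727 bp from its start, and neither Elane nor Cfd had a start call in any list. Upstream of Prtn3, the start of Plppr3, 5033 bp away, was called in every HFD-LSK list and in 3 of the LFD-LSK lists. Mpo (chr11:87793784-87804412, plus strand) had 1 peak of 555 bp in LFD-LSK replicate 2, 1177 to 1731 bp downstream of the start, at rank 8238 with 18 fragments, which also covers the start of the predicted gene Gm34064. In GRCm39, a GENCODE transcript of Mpo marked for nonsense-mediated decay starts 1622 bp downstream of the canonical start. Ctsg (chr14:56099885-56102574, minus strand), in the mast cell protease and granzyme cluster, had its nearest peak 201811 bp from its start, and neither of its coding neighbors Mcpt8 and Gzme was called.

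The 7 genes with a promoter sequence also differed in CpG content. Gfi1 had 16 CpGs in the 300 bases at its upstream start and 10 at its downstream start, Csf3r 9, Ctsg 8, Elane 6, Prtn3 4 and Mpo 2, beside a median of 7 over all promoters. Over all promoters, 25.5 was the median of those called in all 7 lists and 3 the median of those called in none. In the class of 5 to 9 CpGs, which holds Csf3r, Elane and Ctsg, 19.6% of promoters were called in at least 1 list and 3.90% in all 7. In the class of 2 to 4, which holds Prtn3 and Mpo, the shares were 6.17% and 0.789%. Csf2ra had 23 CpGs and no call, in a class of 20 to 24 where 85.3% of promoters were called in at least 1 list. The members' own calls did not follow their CpG counts in order: Csf2ra, with 23, had none where Csf3r, with 9, was called in 6 lists. The 1 call of Prtn3, with 4, was an internal peak that reached 235 bases into the 1 kb window. It lay outside the 300 bases in which CpGs were counted. The observed over expected CpG ratio was 0.738 for Csf2ra, 0.641 for the upstream start of Gfi1, 0.326 for Csf3r and 0.0871 for Mpo.

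**Figure D5:**
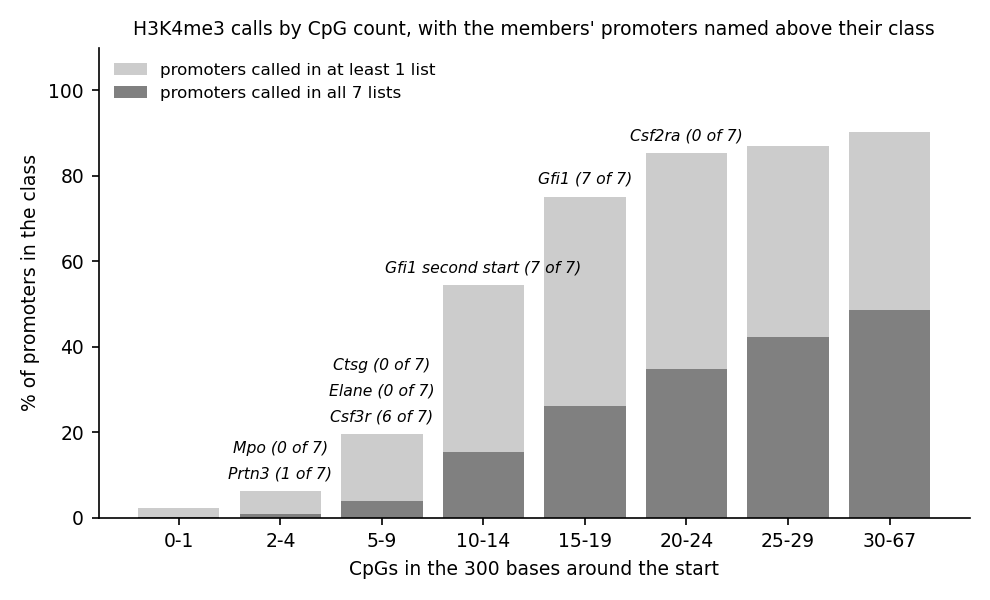
Share of promoters with a start peak in at least 1 list (light bars) and in all 7 lists (dark bars), in percent, by the number of CpGs in the 300 bases around the start, with the promoters of the 7 genes named above their class and their own number of lists in parentheses. Csf3r (6 of 7) stands in a class where 19.6% of promoters are called at all, and Csf2ra (0 of 7) in one where 85.3% are.

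Related genes put these calls in context, as counts over gene-by-list positions. Starts of 10 other myeloid transcription factors were called in 22 of 30 positions in HFD-LSK and 26 of 40 in LFD-LSK, with Cebpa, Gata2, Myb, Ikzf1 and Egr1 in all 7 lists and Cebpe and Gfi1b, the paralog of Gfi1, in none. Starts of 10 other cytokine receptors were called in 21 of 30 and 20 of 40 positions, with Kit and Ifngr1 in all 7 lists and Csf2rb2 and Il5ra in none. Starts of 10 other primary granule genes were called in 10 of 30 and 10 of 40, with Ctsc, the protease that activates the granule serine proteases, in all 7 lists and Serpinb1a, Ms4a3, Bpi and Hp in none. Starts of 10 genes of later granules and mature phagocytes, such as Ltf and S100a8, had no call in any list. For comparison, the 10 genes described here were called in 9 of 30 positions in HFD-LSK and 7 of 40 in LFD-LSK. Over all protein-coding starts, the mean share called per list was 46.2% in HFD-LSK and 38.5% in LFD-LSK. No set was tested against these shares. Of the 30 other genes of the first 3 sets, 22 had a call and could be tested by rank. Ikzf1 and Ifngr1 passed at an unadjusted p (exact permutation p = 0.0286 each), both with ranks farther from the top in HFD-LSK, as did 1.74% of all starts. Such ranks depend on list length, and ranks as percent of the own list are not given for these genes.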

How the data were processed

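H3K4me3 CUT&Tag of sorted LSK cells was analyzed from 1 deposited list of peaks per library, 3 HFD-LSK and 4 LFD-LSK, with groups and replicate numbers from the labels. The sample titles name CUT&RUN, whereas the study's methods describe CUT&Tag, which was taken as the assay. The 7 matched IgG libraries were not analyzed here. The submitters' processing notes name Trim Galore, Bowtie2, Picard, MACS2, bedtools, HOMER and featureCounts and the build GRCm38, while the study's methods name GRCm39 and SEACR. Gene starts of GRCm38 matched the peaks and were used. Read counts per region are not used here, so the count model of the study was not run.

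The deposited columns per peak, as made by the authors, are a fold enrichment (a ratio, summit over background), its p-value and q-value on a −log10 scale, and a score that restates the p. Starts came from a RefSeq promoter table (GRCm38.p6), or else from the 5′ end of the RefSeq gene with the strand of the same symbol in GENCODE, as for Spi1, Csf1r and Csf2rb, and 90.5% of 49943 genes were placed. A call is any peak overlapping the 1 kb on either side of a start. Peaks were ranked by fold inside their own list, with ties averaged and a list without a call set midway between its own length and the 14659 consensus peaks (union of the lists). Calls were compared by Fisher's exact test and ranks and widths by an exact permutation test over 35 assignments, two-sided, over all starts with a call and with Benjamini-Hochberg adjustment. Any 2 lists shared at most 8 identical intervals, so all 7 were counted.

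Fragments at a summit were recovered by inverting the fold and p of MACS2. In simulated lists, at least 99.9% of summits were recovered exactly. Among 13726 simulated gene starts, 54.0% of 100 raised 4-fold in HFD-LSK and 81.0% of 100 raised 4-fold in LFD-LSK were found, and 2.68% of the unchanged starts passed. This simulation took depth from each library's median summit fragments, assumed the spread between libraries and ranked by counts without background. Its rates need not hold for the real lists. Python 3.11.15, numpy 2.4.6, pandas 2.3.3 and scipy 1.17.1 were used.

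All 10 genes are named by rule. Genes of the related sets are named where called in the most or fewest lists, and those passing the rank test were named after their values were seen. The 10 genes and the related sets were chosen with earlier results of these data known. Alternatives were a −log10 q of at least 5, lists of equal length, a 3 kb window, ranks by −log10 p, a 200 base overlap, leaving out each library, a replicate block and protein-coding genes alone. The 5′ end of every RefSeq gene as its start, calls anywhere in the gene, ranks as percent of the list, and the tests of the internal regions of Spi1 and Prtn3 were added after seeing the data. The result for 1 cell type marker is not reported here.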

Additional observations from a re-analysis of the deposited data

Results flagged for a closer look

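Of the values tested in the 4 LFD-LSK libraries (the share of the 10 genes called at the start, and the ranks and widths at Gfi1 and inside Spi1 and Prtn3), 1 had a library far from the others by Dixon's ratio. LFD-LSK replicate 4 called 10% of the genes, where the other 3 libraries called 20% each. The gap is 1 gene, Csf3r, in the shortest of the lists, and, since the other 3 libraries tie, any gap of 1 gene gives the highest ratio. Chance marks about 1 in 20 groups of continuous values in this way, a rate that does not hold for tied counts, and 7 quantities were examined. Groups of 3 are not tested by this ratio.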

How the results depend on the processing

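The counts of members called only in 1 diet (of 10), differing in rank (of the 5 with a start call) or differing in width (of 1, Gfi1) stayed at 0 under the alternatives run for each, leave-one-out included (range 0 to 0). In the main rank test Spi1, Csf2rb and Prtn3 could not have passed. Width was not rerun with the 200 base overlap or other ranks, nor rank and width with calls anywhere in the gene. With a library left out, the permutation test cannot go below 0.0667 (HFD-LSK) or 0.1 (LFD-LSK). The difference in start calls ranged from 7.5 to 17.5 percentage points with 1 library left out, and became 3.33 points with calls anywhere in the gene. In the 3 kb window it was 6.67 points, and the other settings kept its direction.

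Signs that turned, all with p-values over 0.05, were those of the Prtn3 start rank in a 3 kb window (734), and of the Gfi1 width with a −log10 q of at least 5 or at the 5′ end of the gene (44.6 bp each). With a −log10 q of at least 5, the internal regions of Spi1 and Prtn3 also turned, to -355 and -368 ranks. With 1 library left out, differences ranged from -399 to 1930 ranks at Gfi1, from -857 to 476 bp in Gfi1 width, from -5884 to -3645 ranks at Csf3r, from -847 to 310 at Csf2rb, from -1014 to 1862 inside Spi1 and from -387 to 2083 inside Prtn3, and from -77.5 to 878.5 bp in width inside Spi1. With ranks as percent of the own list, the median over all starts was -19.8 points, so signs on this scale are not read as turns. Differences were negative at the starts of Gfi1 (-2.82 points), Spi1 (-26.9) and Csf2rb (-31.2) and inside Spi1 (-10.6) and Prtn3 (-4.71), and Csf3r ranged from -85.2 to -46.1 with 1 library left out. The causes were not tested.

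Under the replicate block (3 pairs, smallest possible p 0.25), the difference in start calls was 10 points (exact sign-flip p = 0.5), and Csf2rb (-299) and the region inside Spi1 (-535) turned in sign. Same-numbered libraries did not deviate together (correlations 0.0778, 0.0164 and -0.00774), and the other pairs ranged from -0.0813 to 0.0896. The numbers were therefore not taken to pair samples. The study's count model took batch and pairing into account, but the labels do not say which libraries share either. The tests over 35 assignments treat the libraries as exchangeable, so batch and pairing stay unaccounted for in them. The background shares moved by less than 1.5 times with protein-coding genes alone. The fewest fragments at a called summit ranged from 4 (HFD-LSK replicate 3) to 21 (LFD-LSK replicate 1), and what sets this limit was not tested. The median summit held 15 and 48 fragments in these libraries, so the limits in fragments do not order the libraries by sensitivity. Weak peaks could be called in some libraries and not in others, so the genes with 0 or 1 call cannot be ordered.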
